A study of Mus musculus with 4 samples.

Results

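The collagen genes were followed through 4 single-cell RNA-seq libraries of the mouse Tbx1 lineage. Members were all genes whose symbol has the form Col, a number, a and a number, which gave 44 of the 27514 genes that the 4 gene tables share by Ensembl identifier. The rule used names only and no measured value. Of these, 43 had at least 1 molecule counted, and Col10a1, the collagen of hypertrophic cartilage, had 0. The members added up to 207341 unique molecular identifiers (UMIs), the tags that mark single captured mRNA molecules. 29 members had at least 100 UMIs over the 4 libraries and are described by name, and 17 of these had at least 1000.

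The study asked what loss of Tbx1, a T-box transcription factor gene of the pharyngeal apparatus, does to the cells that expressed it and to their descendants. Swiss Webster embryos carried Cre at the Tbx1 locus and a GFP reporter at Rosa26 that Cre switches on, and GFP-positive cells that excluded the dead-cell dye DAPI were sorted. Control embryos (Ctrl) were Tbx1Cre/+;Rosa26-GFPflox/+ and conditional knockout embryos (cKO) were Tbx1Cre/flox;Rosa26-GFPflox/+, each at embryonic day (E) 8.5, from the upper part of the body, and at E9.5, from the pharyngeal apparatus with the heart. The study's sample summary adds the back to the E9.5 tissue. Cells were captured with 10x Chromium chemistry, in which reads come from the 3′ ends of mRNAs. The Cre allele takes the place of 1 Tbx1 copy, so Ctrl embryos also lacked 1 working copy, and the cKO cells lost the second copy where and when Cre was made. The driver marks every cell that ever used the Tbx1 promoter, and it is known to label endoderm, ectoderm and otic cells along with mesoderm. The number of embryos behind each library is not given in the labels, but the study lists it, with fewer cKO than Ctrl embryos at both stages. The study lists slightly more somites for cKO than for Ctrl embryos at E8.5, so genotype and age cannot be told apart there.

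There was 1 library per group, so no difference between groups has a replicate check and no test was possible. All intervals are exact 95% Poisson or binomial intervals and cover counting error only. They say nothing of how far a second library of the same group would differ. The libraries held 1090 to 6266 barcodes and 25391654 to 104773150 UMIs, with a median of 15910.5 to 23984 UMIs per barcode. Between 2 and 55 barcodes were shared by any pair of libraries, at most 1.009% of the smaller one. Levels are UMIs of a gene per 1000000 UMIs of all shared genes (UPM). Tbx1 itself stood at 86.4 UPM at E8.5 and 103 at E9.5 in Ctrl, and at 118 and 134 in cKO. Its 3′ counts were not lower in cKO and do not report on the floxed exons, so the cKO label was not checked by these data. The cKO E9.5 library was counted on another gene table of 31053 genes, against 27998 in the others, and of the RefSeq genes that overlap a collagen gene none was listed in 1 of the E9.5 tables alone. Gene models that differ between the tables could still move the count of a single gene, which could not be checked further, and every E9.5 genotype ratio rests on both tables.

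Collagens are proteins built from 3 chains wound into a triple helix. Some assemble into fibrils that give tissue its tensile strength, some form the sheets of basement membranes, and others sit on fibrils, span the plasma membrane or release signalling fragments. In the embryo the fibrillar types mark mesenchyme and early skeletal tissue, whereas type IV collagen underlies epithelia and surrounds vessels. The fibrils of type I hold chains from Col1a1 and Col1a2, type IV networks are made from paired chains, and type IX, from 3 genes, decorates cartilage-type fibrils.

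The summed collagen level of Ctrl was 425 UPM (95% counting interval 417 to 433) at E8.5 and 939 (932 to 945) at E9.5, and that of cKO was 481 (473 to 490) and 915 (909 to 921). Both E9.5 libraries therefore stood about 2-fold above both E8.5 libraries, with log2 ratios of 1.14 in Ctrl and 0.93 in cKO. Between genotypes the sum differed little, with a log2 ratio of cKO over Ctrl of 0.18 at E8.5 and of -0.04 at E9.5. The E9.5 direction depended on the scaling, since with trimmed mean of M-values (TMM) factors the sums were 812 UPM in Ctrl and 947 in cKO. In sums over cells, fewer cells of a type and less RNA per cell cannot be told apart.

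The near-equal sums at E9.5 covered opposite differences between families. The 11 fibril-forming genes summed to 390 UPM in Ctrl and 517 UPM in cKO at E9.5, a log2 ratio of 0.41, and made up 41.5% and 56.4% of collagen UMIs. The 9 fibril-associated genes went the other way, from 136 to 90.4 UPM, a log2 ratio of -0.59. The 2 multiplexins, basement membrane collagens whose ends give rise to anti-angiogenic fragments, stood at 64.5 and 26.7 UPM, a log2 ratio of -1.27. Of the 6080 multiplexin UMIs of Ctrl E9.5, 5861 were of Col18a1. The 4 transmembrane genes were at 68.9 and 41.0 UPM (log2 ratio -0.75), and the 9 network-forming genes at 130 and 124 UPM (log2 ratio -0.07). The 6 beaded-filament genes of type VI were few in counts, at 6.01 and 8.71 UPM, with a log2 ratio of 0.53. At E8.5 the fibril-forming sum was also higher in cKO, with a log2 ratio of 0.31, while the fibril-associated (0.09) and multiplexin (0.14) sums were not lower.

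**Figure D1:**
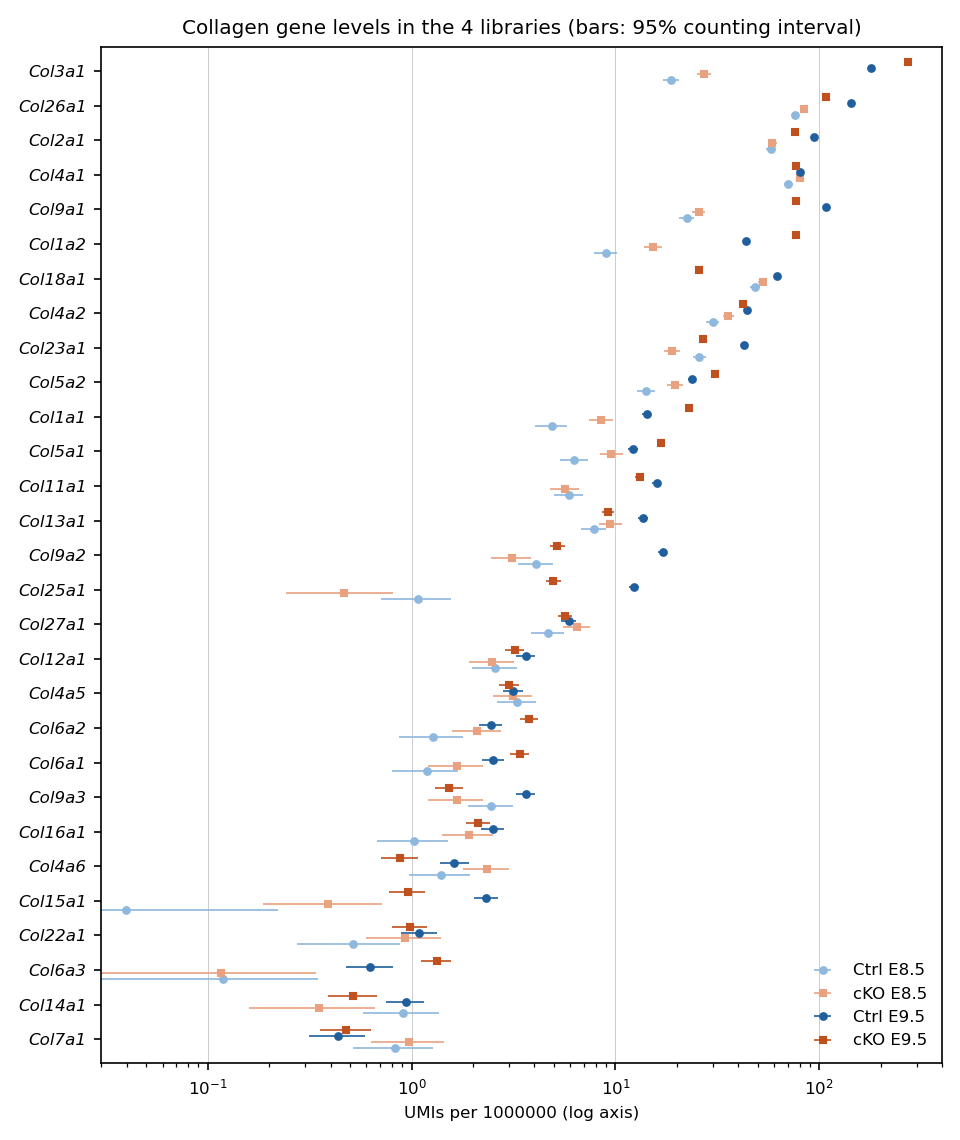
Levels of the 29 collagen genes with at least 100 UMIs in the 4 libraries, in UMIs per 1000000 on a log axis, ordered by total count. Points are libraries, circles Ctrl and squares cKO, and bars are 95% counting intervals, of which those of Col15a1 in Ctrl E8.5 and of Col6a3 in both E8.5 libraries run past the left edge; Col3a1 is highest at 273 in cKO E9.5.

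The promoters of 35 collagen genes were found in the RefSeq table for GRCm38.p6, which gives 300 bases per start site, from 250 before to 50 after it. Col4a1 and Col4a2 are shown first because they lie head to head. Their start sites are 21 bases apart on chromosome 8, on opposite strands. The windows, chr8:11312777-11313076 on the minus strand and chr8:11312555-11312854 on the plus strand, share 78 bases, which are in capitals and are reverse complements of each other.
Col4a1: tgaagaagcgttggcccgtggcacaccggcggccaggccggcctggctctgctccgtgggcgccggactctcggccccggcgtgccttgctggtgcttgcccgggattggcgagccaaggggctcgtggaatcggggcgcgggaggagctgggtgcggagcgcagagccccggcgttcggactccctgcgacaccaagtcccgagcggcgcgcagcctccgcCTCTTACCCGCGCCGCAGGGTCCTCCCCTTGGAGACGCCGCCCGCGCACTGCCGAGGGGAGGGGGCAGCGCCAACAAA
Col4a2: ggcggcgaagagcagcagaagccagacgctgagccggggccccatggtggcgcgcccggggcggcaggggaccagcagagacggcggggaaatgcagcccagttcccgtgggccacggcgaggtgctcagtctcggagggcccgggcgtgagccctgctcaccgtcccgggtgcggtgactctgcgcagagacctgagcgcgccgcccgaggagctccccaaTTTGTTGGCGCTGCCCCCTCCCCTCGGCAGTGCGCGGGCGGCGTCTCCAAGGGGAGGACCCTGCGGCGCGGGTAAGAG

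Col1a2, the more counted type I gene, and Col3a1, the type III gene, are shown for comparison, with matches to a CCAAT box (CCAAT), a GC box (GGGCGG) or a TATA box (TATAAA) on either strand in capitals. Their windows are chr6:4505368-4505667 and chr1:45311288-45311587, both on the plus strand.
Col1a2: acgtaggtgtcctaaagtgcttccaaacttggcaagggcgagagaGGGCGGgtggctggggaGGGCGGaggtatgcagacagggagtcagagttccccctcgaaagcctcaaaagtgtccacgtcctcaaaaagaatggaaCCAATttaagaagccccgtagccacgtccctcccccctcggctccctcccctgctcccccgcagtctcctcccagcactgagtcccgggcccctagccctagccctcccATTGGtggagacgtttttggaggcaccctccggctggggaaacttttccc
Col3a1: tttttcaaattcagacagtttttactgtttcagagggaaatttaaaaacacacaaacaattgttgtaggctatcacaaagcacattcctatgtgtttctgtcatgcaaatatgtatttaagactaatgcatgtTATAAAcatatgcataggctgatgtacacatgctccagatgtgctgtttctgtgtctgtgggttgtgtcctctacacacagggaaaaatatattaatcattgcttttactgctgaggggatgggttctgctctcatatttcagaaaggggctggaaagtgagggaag
Col13a1 (chr10:61979059-61979358, minus strand) and Col25a1 (chr3:130180595-130180894, plus strand) are shown in the same way because both were highest in muscle progenitors.
Col13a1: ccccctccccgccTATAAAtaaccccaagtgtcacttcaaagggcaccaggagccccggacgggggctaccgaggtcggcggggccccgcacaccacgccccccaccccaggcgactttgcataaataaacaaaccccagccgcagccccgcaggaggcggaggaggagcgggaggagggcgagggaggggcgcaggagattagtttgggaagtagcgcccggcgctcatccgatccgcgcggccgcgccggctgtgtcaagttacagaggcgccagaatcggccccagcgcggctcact
Col25a1: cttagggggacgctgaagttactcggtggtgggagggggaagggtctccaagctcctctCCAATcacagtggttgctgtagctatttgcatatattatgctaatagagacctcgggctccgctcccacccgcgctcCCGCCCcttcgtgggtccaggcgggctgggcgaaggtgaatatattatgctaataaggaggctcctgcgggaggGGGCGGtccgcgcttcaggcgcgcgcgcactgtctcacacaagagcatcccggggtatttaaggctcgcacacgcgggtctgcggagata

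Over the 38 start sites of these 35 genes, the GC box letters were found in 60.5%, against 35.7% of all 32851 promoter windows in the table. The CCAAT letters were found in 34.2% against 37.4%, and the TATA letters in 13.2% against 13.6%. Both strands were searched, and a CCAAT and a GC box can share bases where they adjoin. Of the pairs shown, Col4a1 and Col4a2 both had CCAAT and GC boxes and no TATA box. The other two pairs did not carry the same set: Col1a2 had CCAAT and GC boxes and Col3a1 a TATA box, while Col25a1 had CCAAT and GC boxes and Col13a1 a TATA box. A match is a description of letters and not a site.

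To see where the collagens were expressed, cells were assigned to groups by markers that hold no collagen gene, each cell needing a set number of the group's markers with at least 1 UMI. At E9.5, 9 groups had at least 50 cells in both libraries. Named for the markers they passed, they were endothelial (411 cells in Ctrl, 115 in cKO), epithelial (757 and 224), cardiomyocyte (152 and 93), branchiomeric muscle progenitor (BrM, 381 and 252), anterior second heart field (aSHF, 159 and 119), posterior second heart field (pSHF, 138 and 173), multilineage progenitor (MLP, 212 and 723), somitic (289 and 571) and mesenchyme (2494 and 3277). Endothelial cells were thus 7.54% of Ctrl and 1.84% of cKO, and epithelial cells 13.9% and 3.57%. The mesodermal groups overlap: 134 of the 212 MLP cells and 270 of the 289 somitic cells of Ctrl E9.5 also passed another gate. So did 122 of the 152 cardiomyocytes and 91 of the 138 pSHF cells. Without such cells, too few remained at E9.5 for a genotype ratio in cardiomyocytes, pSHF, aSHF and somitic cells. The MLP gate used Arg1, Vamp8, Rdh10 and Pcp4, whereas the study marked its multilineage progenitors by Tbx1, Isl1, Aplnr and Nrg1. Among the 10 genes with the largest fold in MLP cells was the somitic marker Meox1 in each library, and Tcf15 too at E8.5. MLP cells here need not be the population that the study described. The markers of the groups were detected throughout, with all 8 endothelial and all 6 epithelial markers present in each library. Their sums stood at 205 and 182 UPM (endothelial) and 28.6 and 44.5 UPM (epithelial) in Ctrl and cKO at E8.5, and at 294 and 101 UPM and 261 and 92.2 UPM at E9.5.

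In Ctrl E9.5 the collagen sum was highest in mesenchyme, at 1311 UPM, and in somitic cells, at 1247 UPM, and lowest in epithelial cells, at 492 UPM. Of 35 members with at least 20 UMIs, 13 were at least 2-fold higher in mesenchyme than in all other cells, against 3.00% of the 14150 genes tested. These were Col1a1, Col1a2, Col2a1, Col3a1, Col5a2, Col5a3, Col6a2, Col8a2, Col9a1, Col11a1, Col16a1, Col23a1 and Col26a1. In endothelial cells 4 were (background 8.81%), in epithelial cells 4 (10.3%), in cardiomyocytes 6 (11.2%) and in BrM cells 3 (3.09%). The share of members was well above the background in mesenchyme, and close to it in endothelial and epithelial cells. With gates set on cells thinned to equal depth, the mesenchyme count was 4.

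**Figure D2:**
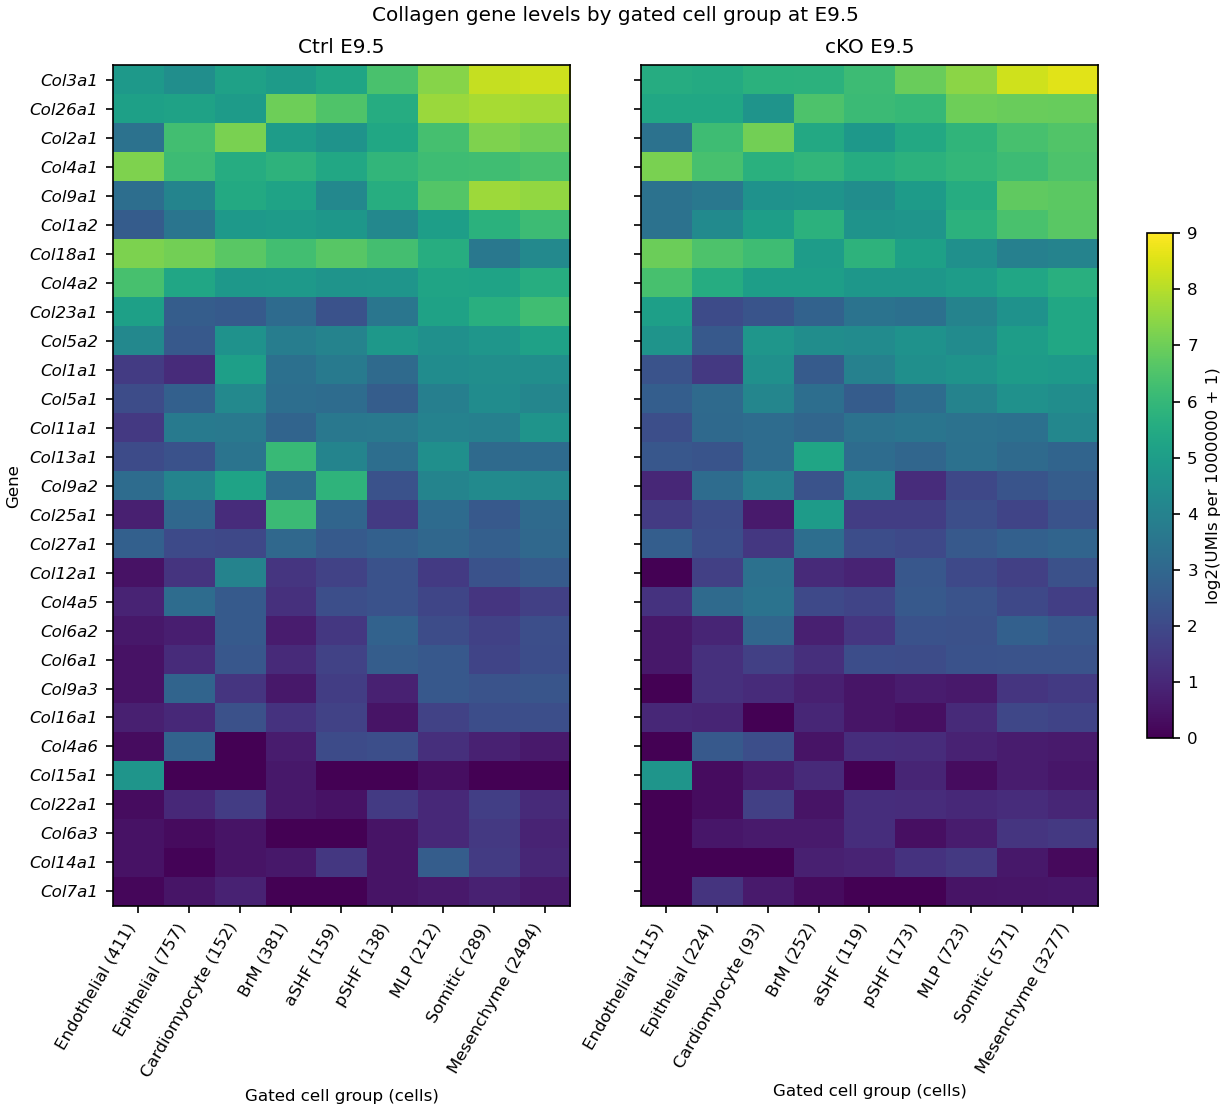
Levels of the 29 collagen genes in 9 gated cell groups at E9.5, Ctrl on the left and cKO on the right, as log2(UMIs per 1000000 + 1) on a colour scale from 0 to 9, with the number of cells under each group. Col3a1 is brightest in mesenchyme at 319 (Ctrl) and 389 (cKO) UMIs per 1000000, Col15a1 is dark outside endothelial cells, and Col13a1 and Col25a1 are brightest in BrM cells.

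Col3a1, the chain of the type III fibrils of soft tissue and vessel walls, was the most abundant member. Its gene (ENSMUSG00000026043) spans chr1:45311538-45349706 in GRCm38.p6, the build of all positions given here. It stood at 18.8 UPM at E8.5 and 179 at E9.5 in Ctrl, and at 27.2 and 273 in cKO. Stage gave by far the larger difference, with log2 ratios of E9.5 over E8.5 of 3.25 (3.12 to 3.38) in Ctrl and 3.33 (3.22 to 3.44) in cKO. In both stages cKO was above Ctrl, with log2 ratios of 0.53 (0.36 to 0.70) at E8.5 and 0.61 (0.58 to 0.64) at E9.5. Within Ctrl E9.5 its level ran from 20.7 UPM in epithelial cells to 319 (313 to 324) in mesenchyme. In cKO it was higher in all 9 groups, and the interval lay above 0 in 8 of them, the exception being MLP cells, where the ratio was -0.29 with gates set on thinned cells. The log2 ratio was 1.09 in epithelial cells and 0.90 in aSHF, but 0.29 in mesenchyme, 0.14 in somitic cells and 0.07 in MLP cells, so the groups with low Ctrl levels showed the larger ratios.

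Col1a2 and Col1a1 encode the chains of type I collagen, the main protein of skin, tendon and bone. Col1a2 was at 8.96, 15.3, 43.9 and 77.2 UPM in Ctrl E8.5, cKO E8.5, Ctrl E9.5 and cKO E9.5, and Col1a1 at 4.87, 8.51, 14.2 and 23.1 UPM. Both were higher in cKO, with log2 ratios for Col1a2 of 0.77 (0.53 to 1.02) at E8.5 and 0.81 (0.76 to 0.87) at E9.5, and for Col1a1 of 0.80 (0.48 to 1.13) and 0.70 (0.60 to 0.79). Within gated groups at E9.5, Col1a2 was higher in cKO in 8 of 9, with 0.55 (0.48 to 0.61) in mesenchyme and 0.73 (0.45 to 1.02) in MLP cells. Col1a1 was less uniform: it was higher in 7 of 9, with 1.49 (0.76 to 2.28) in pSHF cells, and lower in BrM cells at -0.82 (-1.51 to -0.16). Col1a1 was highest in Ctrl E9.5 in cardiomyocytes, at 32.5 UPM (25.8 to 40.5), and Col1a2 in mesenchyme, at 70.8 (68.3 to 73.5). UMIs of Col1a2 per UMI of Col1a1 were 1.84 and 1.80 at E8.5 and 3.09 and 3.35 at E9.5 in Ctrl and cKO, so over whole libraries it differed more by stage than by genotype. In BrM cells at E9.5 the genotypes differed more, with a ratio of 3.33 (2.55 to 4.40) in Ctrl and 10.8 (7.28 to 16.7) in cKO. In MLP cells it was 1.62 (1.20 to 2.20) and 2.28 (1.99 to 2.61). In pSHF cells it was 2.25 (1.30 to 4.02) and 1.17 (0.84 to 1.62), and in mesenchyme 3.42 and 3.78. In all groups but BrM the intervals of Ctrl and cKO overlapped. Such a ratio of 3′ counts is not the ratio of the proteins.

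The other fibril-forming genes split by type. Col5a1 and Col5a2, whose chains start the growth of type I fibrils, stood at 6.26, 9.56, 12.2 and 16.7 UPM and at 14.1, 19.6, 23.7 and 30.9 UPM in Ctrl E8.5, cKO E8.5, Ctrl E9.5 and cKO E9.5. Their log2 ratios of cKO over Ctrl were 0.61 (0.32 to 0.91) and 0.47 (0.27 to 0.67) at E8.5, and 0.46 (0.35 to 0.57) and 0.38 (0.31 to 0.46) at E9.5. They were thus higher in cKO at both stages, like the type I and III genes. Col2a1, the main cartilage collagen, was at 58.0, 58.7, 94.2 and 76.3 UPM. Its ratio was near 0 at E8.5 and changed sign with the scaling there, and was -0.30 (-0.35 to -0.26) at E9.5. Col11a1, a minor chain of cartilage fibrils, was at 5.90, 5.63, 15.97 and 13.1 UPM, and its E9.5 genotype ratio was -0.28 (-0.39 to -0.18).

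Col2a1 was also lower within cKO somitic cells at E9.5, at 83.3 against 153 UPM (log2 ratio -0.88, -1.02 to -0.74), and in mesenchyme, at 93.0 against 134 UPM (-0.53, -0.58 to -0.47). In BrM cells it was higher, at 42.4 against 30.6 UPM (0.47, 0.20 to 0.73). In Ctrl it was nearly as high in cardiomyocytes, at 145 UPM, as in somitic cells, and the intervals overlapped. Col27a1, a fibrillar gene of developing cartilage, was at 4.68, 6.45, 5.90 and 5.66 UPM in the same order of libraries, with a ratio of 0.46 (0.12 to 0.82) at E8.5. The other fibril-forming genes were sparse: Col5a3 had 2, 0, 20 and 45 UMIs, Col11a2 had 10, 13, 30 and 27, and Col24a1 had 5, 3, 13 and 25.

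Type IV collagen, the sheet-forming scaffold of basement membranes, differed little between libraries in its main chains. Col4a1 was at 70.6, 80.2, 80.0 and 77.1 UPM in Ctrl E8.5, cKO E8.5, Ctrl E9.5 and cKO E9.5, and Col4a2, its usual partner, at 30.0, 35.8, 44.0 and 42.0 UPM. Among the 37 members tested at E9.5 their genotype ratios were close to 0, at -0.05 and -0.06, and were above 0 with TMM or median-of-ratios factors. Both were highest in Ctrl E9.5 in endothelial cells, at 151 UPM (143 to 160) and 82.7 (76.7 to 89.2), apart from the next group, mesenchyme, at 85.1 and 48.3. Endothelial cells of cKO E9.5 had 143 and 82.6 UPM, with log2 ratios of -0.08 (-0.27 to 0.11) and -0.0018 (-0.25 to 0.24). Over the 9 groups the genotype ratio of Col4a1 stayed between -0.24 and 0.20. UMIs of Col4a2 per UMI of Col4a1 were 0.55 in both E9.5 libraries and 0.43 and 0.45 at E8.5, and ran from 0.41 to 0.59 over the groups of Ctrl E9.5. In cKO E8.5 this ratio ran from 0.31 (0.22 to 0.44) in endothelial cells to 0.53 (0.46 to 0.60) in mesenchyme, and these intervals did not overlap. The windows of this pair are those shown above with the shared stretch in capitals. Over the 30 combinations of group and library with at least 50 cells, Spearman's rho between the levels of the pair was 0.81, and that of Col1a2 with Col3a1 also 0.81. The points share libraries and depth, so these values are descriptions.

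Col4a5 and Col4a6 are X-linked and encode chains of a type IV network found under some epithelia. Col4a5 was level at 3.29, 3.15, 3.15 and 3.02 UPM in the 4 libraries. Col4a6 was at 1.39, 2.33, 1.62 and 0.879 UPM, with log2 genotype ratios of 0.75 (0.12 to 1.39) at E8.5 and -0.88 (-1.27 to -0.50) at E9.5. After thinning every cell to 5000 UMIs the E8.5 ratio of Col4a6 was -0.03, so its direction there changed with the thinning, while that at E9.5 was -0.91. Both were highest in epithelial cells in Ctrl E9.5, Col4a5 at 8.17 and Col4a6 at 6.32 UPM, 1.87 and 3.05 above all other cells on the log2 scale. Within epithelial cells Col4a6 was at 4.75 UPM (2.94 to 7.27) in cKO, an interval that overlaps that of Ctrl (5.09 to 7.75). The epithelial share of cells was lower in cKO, as given above. When the Ctrl group levels were weighted by the cell-group make-up of the cKO library, a comparison chosen after seeing the data, the E9.5 log2 ratio of Col4a6 was -0.30 in place of -0.88. Of the other network-forming genes, Col4a3 had 1 UMI, Col4a4 had 68, Col8a1 had 45 and Col8a2 had 57 over the 4 libraries.

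At E9.5, 2 of the 37 members with at least 20 UMIs were at least 2-fold higher in cKO, against 3.56% of the 15130 genes tested. The 2 were Col5a3 and Col6a3. 6 members were at least 2-fold lower, against a background of 9.80%: Col6a4, Col9a2, Col9a3, Col15a1, Col18a1 and Col25a1. Both shares of members were somewhat above the background, and each rests on a few genes. The median log2 ratio was -0.18 over the members and -0.26 over all genes, so most genes of the table, and not the collagens alone, lay below 0. Within the 9 gated groups the median of all genes was between -0.24 and -0.19. With TMM or median-of-ratios factors, which remove that shift, Col4a1, Col4a2, Col4a5, Col8a2, Col12a1, Col16a1, Col22a1 and Col27a1 moved from below to above 0. The other named members kept their sign under both, with Col2a1 at -0.04 and Col11a1 at -0.02 under TMM.

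**Figure D3:**
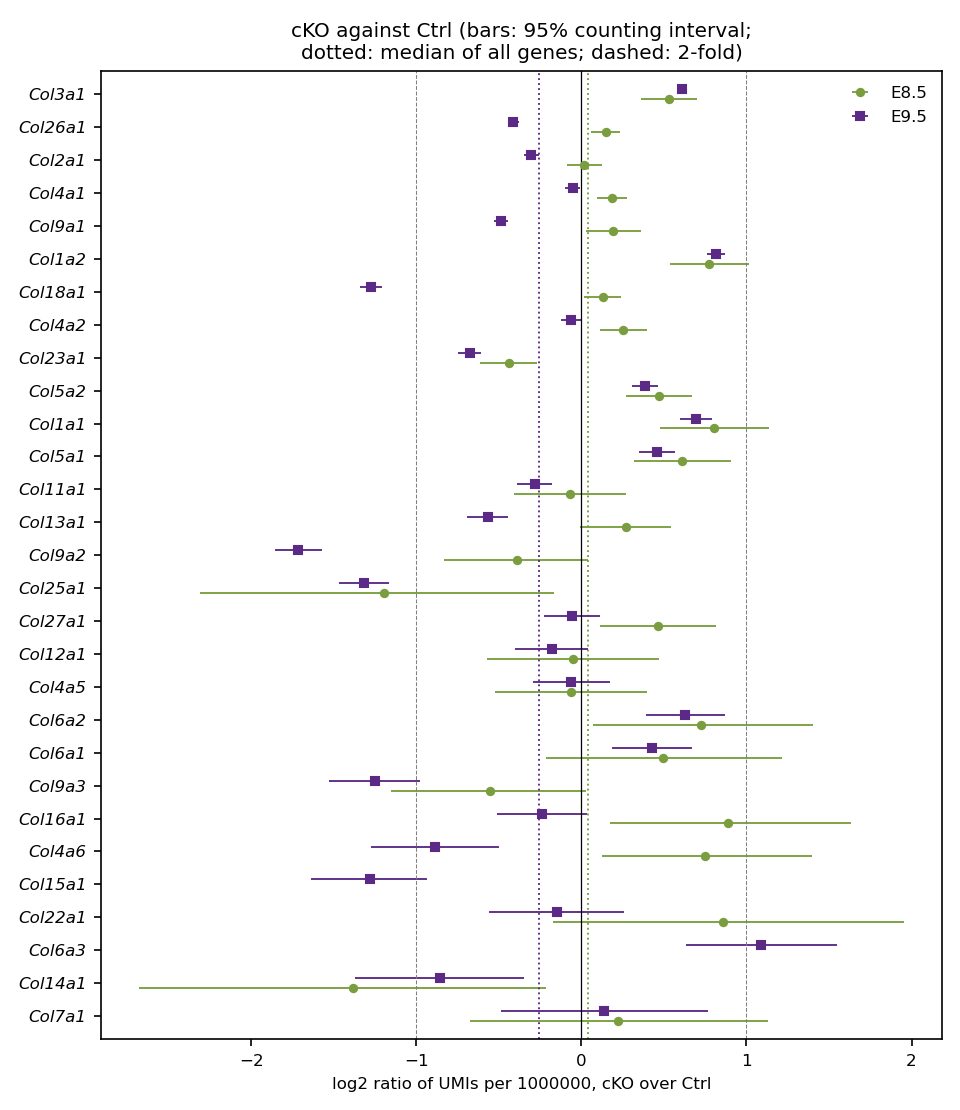
Log2 ratio of UMIs per 1000000 in cKO over Ctrl for the named collagen genes at E8.5 (circles) and E9.5 (squares), for genes with at least 20 UMIs in the pair of libraries. Bars are 95% counting intervals, dotted lines the median of all genes (0.04 and -0.26) and dashed lines 2-fold; the E9.5 points of Col9a2, Col25a1, Col15a1, Col18a1 and Col9a3 lie left of the 2-fold line.

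Type IX collagen, which coats cartilage-type fibrils, gave the largest genotype difference among the well counted members. Col9a2 (ENSMUSG00000028626, chr4:121039566-121055325) was at 4.08 UPM at E8.5 and 17.05 at E9.5 in Ctrl, against 3.11 and 5.19 in cKO. The log2 ratio of cKO over Ctrl was -0.39 (-0.83 to 0.04) at E8.5 and -1.72 (-1.86 to -1.57) at E9.5. Col9a3 followed, at 2.46, 1.67, 3.64 and 1.53 UPM, with -0.56 (-1.15 to 0.03) and -1.25 (-1.53 to -0.98). Col9a1, the most abundant of the 3, was at 22.3, 25.6, 107 and 76.8 UPM, with ratios of 0.19 (0.03 to 0.36) and -0.48 (-0.53 to -0.44).

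The lower Col9a2 level was seen in every one of the 8 groups in which it had enough counts at E9.5, and the interval lay below 0 in all 8. It was highest in aSHF cells, where Ctrl had 56.9 UPM (48.4 to 66.3) and cKO 16.2 (11.5 to 22.3). The aSHF ratio was -1.81 (-2.36 to -1.29). Cardiomyocytes came next in Ctrl, at 36.6 UPM (29.4 to 45.0). In mesenchyme Col9a2 stood at 17.5 and 5.32 UPM (-1.72, -1.92 to -1.52), and in MLP cells at 15.6 and 2.84 (-2.46, -3.09 to -1.84). After thinning every cell to 5000 UMIs, 27.7% of Ctrl and 9.24% of cKO aSHF cells had a Col9a2 UMI, against 2.63% and 2.38% of BrM cells. Without thinning the aSHF shares were 52.8% and 21.0%. Of the 159 aSHF cells of Ctrl E9.5, 116 had just the 4 markers needed. With stricter gates, thinned gates or no cells of a second gate, too few aSHF cells remained for a genotype ratio. Col9a1 was distributed otherwise, highest in somitic cells at 204 UPM and in mesenchyme at 184, and at 17.2 UPM in aSHF. Each UMI of Col9a1 thus came with 3.31 of Col9a2 in Ctrl aSHF cells and with 0.10 in Ctrl mesenchyme. In cKO these ratios were 0.81 and 0.05. Ctrl epithelial, endothelial and cardiomyocyte cells lay between aSHF and mesenchyme, at 1.0, 0.94 and 0.85. Col9a1 was lower in cKO in 7 of 9 groups, with -1.03 (-1.22 to -0.84) in MLP cells and -0.81 (-0.86 to -0.76) in mesenchyme, and its ratio was above 0 in aSHF at 0.22 (-0.38 to 0.83). Col9a3 had enough counts in 4 groups and was lower in each, by the most in MLP cells, where 17 UMIs (4.56 UPM) faced 7 (0.523 UPM).

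The remaining fibril-associated genes were lower in counts. Col12a1, found in tendon and muscle sheaths, was at 2.58, 2.49, 3.64 and 3.21 UPM and stood out in cardiomyocytes of Ctrl E9.5, at 15.4 UPM (10.9 to 21.2) against 3.32 in other cells. Col14a1, a relative of Col12a1, was at 0.911, 0.350, 0.933 and 0.516 UPM, with genotype ratios of -1.38 (-2.68 to -0.22) and -0.85 (-1.37 to -0.35), and was highest in MLP cells at 5.37 UPM. Col16a1 was at 1.03, 1.90, 2.50 and 2.12 UPM, with 0.89 (0.17 to 1.63) at E8.5. Col22a1, a gene of muscle-tendon junctions, was at 0.515, 0.933, 1.09 and 0.984 UPM, and its intervals included 0 at both stages. Col19a1 had 8 UMIs and Col20a1 had 22 over the 4 libraries.

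The multiplexins Col15a1 and Col18a1 are collagens of vascular and epithelial basement membranes, and the C-terminal piece of Col18a1 is endostatin. Col18a1 (ENSMUSG00000001435, chr10:77052178-77166530) was at 48.3 UPM (45.6 to 51.1) at E8.5 and 62.2 (60.6 to 63.8) at E9.5 in Ctrl, against 52.8 (50.04 to 55.7) and 25.7 (24.8 to 26.7) in cKO. The log2 genotype ratio was 0.13 (0.02 to 0.24) at E8.5 and -1.27 (-1.34 to -1.21) at E9.5, and the E8.5 ratio was -0.01 after thinning. In Ctrl E9.5 it was broad, at 149 UPM in endothelial, 136 in epithelial, 102 in cardiomyocyte and 99.7 in aSHF cells, and 11.1 in somitic cells. The cKO level was lower in 8 of 9 groups with the interval below 0 in each of these, by 2-fold or more in BrM (76.8 and 30.4 UPM), pSHF (78.8 and 33.7) and MLP cells (48.3 and 21.7). In endothelial cells the ratio was -0.27 (-0.47 to -0.07), in epithelial cells -0.63 (-0.79 to -0.47), and in somitic cells 0.35 (-0.10 to 0.83). The endothelial interval included the median of all genes within groups, given above, so that ratio did not set Col18a1 apart from other genes.

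Col15a1 (ENSMUSG00000028339, chr4:47207655-47313167) was restricted by comparison. It was at 24.9 UPM (21.6 to 28.5) in endothelial cells of Ctrl E9.5 and at 0.14 UPM in all other cells, a log2 ratio of 7.48 (6.64 to 8.45), and 207 of its 219 UMIs in that library came from endothelial cells. After thinning, 13.9% of endothelial cells had a UMI and 0 of 2490 mesenchyme cells did. A count of 0 allows a share of up to 0.120% of cells with a UMI at that depth, and sets no limit on cells that express the gene. Without thinning the shares were 32.6% and 0.080%. Over the whole E9.5 libraries the level was 2.32 UPM (2.03 to 2.65) for Ctrl and 0.956 (0.778 to 1.16) for cKO, a log2 ratio of -1.28 (-1.64 to -0.93). Within endothelial cells the levels were 24.9 and 24.7 UPM, a log2 ratio of -0.01 (-0.48 to 0.44). With the weighting to the cKO make-up used for Col4a6, the log2 ratio was 0.56 in place of -1.28. Outside endothelial cells its counts were small, with 2 UMIs in Ctrl and 25 in cKO mesenchyme, a log2 ratio of 3.26 (1.26 to 6.39). Col15a1 had 1 UMI in Ctrl and 10 in cKO at E8.5.

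The same weighting kept the direction of the other large differences. Col18a1 stood at -0.64 in place of -1.27, Col9a2 at -1.77 in place of -1.72, and Col25a1 at -1.15 in place of -1.31. Col3a1 and Col1a2 were at 0.27 and 0.56 in place of 0.61 and 0.81. Col9a1 was at -0.82 in place of -0.48, and Col23a1 at -0.92 in place of -0.68. Of the named members past 2-fold, Col15a1 alone changed direction, and Col4a1, Col4a2 and Col4a5, whose ratios were close to 0, moved from below to above 0.

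The transmembrane collagens are short chains anchored in the plasma membrane. Col13a1, which sits at the neuromuscular junction and at sites of adhesion, was at 7.85, 9.44, 13.7 and 9.20 UPM in Ctrl E8.5, cKO E8.5, Ctrl E9.5 and cKO E9.5. Col25a1 (ENSMUSG00000058897, chr3:130180358-130599884), required for motor innervation of muscle, was at 1.07, 0.466, 12.3 and 4.96 UPM. Both were highest in BrM cells of Ctrl E9.5, Col13a1 at 66.4 UPM (60.9 to 72.3) against 8.69 in other cells and Col25a1 at 68.5 (62.9 to 74.5) against 7.06. Both were among the 10 genes with the largest fold in that group, whose gate used neither. In cKO BrM cells they were at 38.1 UPM (33.0 to 43.7) and 30.1 (25.6 to 35.1), log2 ratios of -0.80 (-1.04 to -0.57) and -1.19 (-1.45 to -0.93). After thinning, 27.4% of Ctrl and 12.3% of cKO BrM cells had a Col13a1 UMI, and 25.8% and 11.1% had a Col25a1 UMI. Without thinning these shares were 64.6% and 46.4%, and 54.3% and 35.3%. Among Ctrl endothelial cells the thinned shares were 1.71% and 0.489%.

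Col25a1 was lower in cKO in all 6 groups in which it could be compared, with the interval below 0 in each, at -0.95 (-1.21 to -0.69) in mesenchyme. Col13a1 was lower in 7 of 9, with -1.21 (-1.63 to -0.78) in MLP cells and -0.01 (-0.59 to 0.58) in somitic cells. Col23a1, another transmembrane chain, was at 25.8, 19.04, 42.9 and 26.9 UPM, with genotype ratios of -0.44 (-0.61 to -0.27) at E8.5 and -0.68 (-0.75 to -0.61) at E9.5. It was highest in mesenchyme, at 74.8 UPM in Ctrl and 39.8 in cKO, a ratio of -0.91 (-0.99 to -0.83), and was above 0 in aSHF cells, where 11 UMIs in Ctrl faced 23 in cKO. Col17a1, the transmembrane chain of skin hemidesmosomes, had 1 UMI in all.

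**Figure D4:**
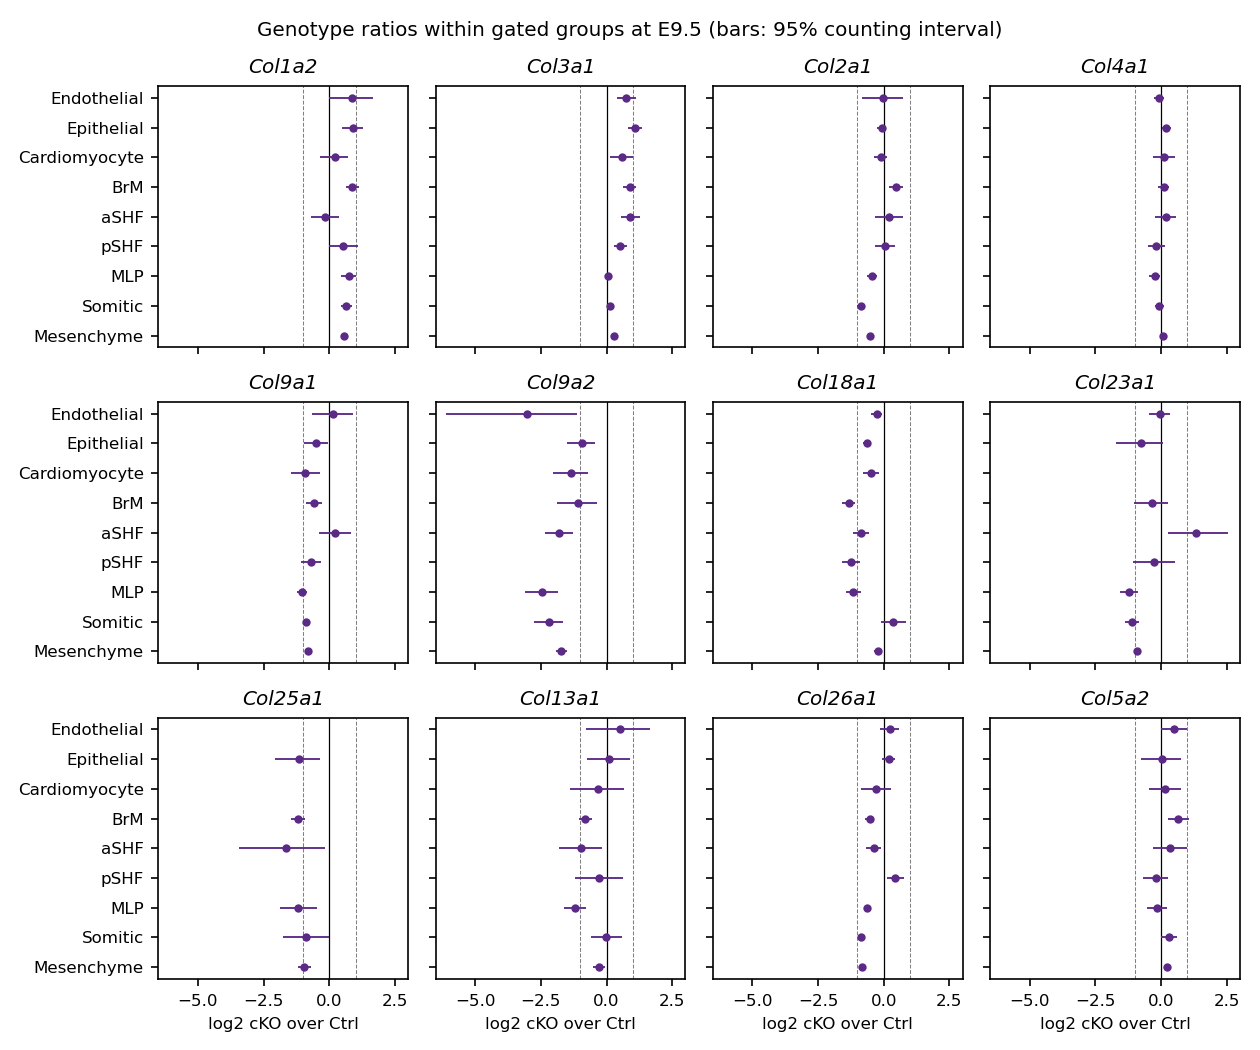
Log2 ratio of cKO over Ctrl at E9.5 for 12 collagen genes within the 9 gated groups. Points are ratios of UMIs per 1000000 of genes with at least 20 UMIs in the group, bars 95% counting intervals and dashed lines 2-fold; every Col9a2 point and every Col25a1 point is left of 0, every Col3a1 point is right of it (that of MLP cells at 0.07, which was -0.29 with gates set on thinned cells), and Col4a1 stays between -0.24 and 0.20.

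Col26a1, a little studied collagen-like gene, was second only to Col3a1 in counts. It was at 76.4, 84.5, 143 and 108 UPM in Ctrl E8.5, cKO E8.5, Ctrl E9.5 and cKO E9.5, with genotype ratios of 0.15 (0.06 to 0.24) and -0.41 (-0.45 to -0.38). In Ctrl E9.5 it was at 226, 213 and 198 UPM in somitic, mesenchyme and MLP cells, and at 29.7 in cardiomyocytes. In cKO the first 3 were lower, at 123, 121 and 127 UPM, and pSHF cells were higher, at 64.1 against 47.1 (0.44, 0.12 to 0.78). Col28a1 had 15 UMIs.

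The beaded-filament genes Col6a1, Col6a2 and Col6a3 encode type VI collagen, a microfibril of muscle and connective tissue. Col6a1 was at 1.19, 1.67, 2.51 and 3.38 UPM and Col6a2 at 1.27, 2.10, 2.44 and 3.78, with E9.5 genotype ratios of 0.43 (0.19 to 0.67) and 0.63 (0.39 to 0.87). Col6a3 was at 0.119, 0.117, 0.626 and 1.33 UPM, with 1.09 (0.64 to 1.55) at E9.5, where 139 UMIs in cKO faced 59 in Ctrl. All 3 were therefore higher in cKO E9.5, and Col6a1 and Col6a2 stayed near 1 to 1 in UMIs, at 0.97 and 1.12 UMIs of Col6a2 per UMI of Col6a1 in Ctrl and cKO. Col6a4 had 27 UMIs in Ctrl and 7 in cKO at E9.5, while Col6a5 had 5 and Col6a6 had 27 over all libraries. Col7a1, the anchoring fibril of epithelia, was at 0.832, 0.971, 0.435 and 0.478 UPM.

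At E8.5 the genotypes were closer. Of 28 members with at least 20 UMIs, 0 were at least 2-fold higher in cKO, against 2.92% of 12762 genes, and 2 were at least 2-fold lower, against 1.30%. The 2 were Col14a1, with 23 UMIs in Ctrl and 9 in cKO, and Col25a1, with 27 and 12. The median log2 ratio was 0.24 over the members and 0.04 over all genes. The fibrillar genes Col1a1, Col1a2, Col3a1, Col5a1, Col5a2 and Col27a1 had intervals above 0. Other members did too, among them Col4a1, Col4a2, Col4a6, Col9a1, Col16a1, Col18a1 and Col26a1. Intervals below 0 included those of Col14a1 and Col23a1. In mesenchyme of E8.5 the collagen sum had a log2 ratio of 0.38, and Col1a2 was at 1.18 (0.68 to 1.70) and Col3a1 at 0.90 (0.64 to 1.17). Over 76 pairs of member and group, 9 were at least 2-fold higher in cKO, against 3.30% of the 46235 pairs over all genes, and 1 was lower, against 1.62%. The median was 0.22. With at least 100 UMIs 3 were higher and 0 lower, and with gates set on thinned cells 3 and 2. Both settings covered fewer pairs, the thinned gates only those of somitic and mesenchyme cells. These counts therefore do not show whether the lean to higher levels depended on the count minimum or the gates.

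Within gated groups at E9.5, 193 pairs of member and group could be compared, with a median log2 ratio of -0.09. 9 were at least 2-fold higher in cKO, against 3.01% of the 97137 pairs over all genes, and 26 were lower, against 5.98%. With TMM factors, which remove the shift of all genes, 16 were higher and 16 lower, so the lean to lower levels depended on the scaling. In mesenchyme 2 of 34 members were higher (Col6a3, Col15a1), against 3.88% of genes, and 4 lower (Col6a4, Col9a2, Col9a3, Col14a1), against 4.50%. In MLP cells 0 of 24 were higher, against 4.01%, and 9 were lower, against 5.93%. These were Col9a1, Col9a2, Col9a3, Col13a1, Col14a1, Col16a1, Col18a1, Col23a1 and Col25a1. That was the highest such count among the 9 groups, and it was 3 when cells that passed a second gate were left out and 3 with TMM factors. Values in MLP cells depended on the gate: with a stricter gate or thinned cells the ratio of Col1a2 was 1.63 or 0.06, that of Col3a1 1.05 or -0.29 and that of Col9a2 -1.11 or -1.53, so Col9a2 was lower in each and Col3a1 was not of 1 sign. The collagen sum of MLP cells was 918 UPM (887 to 949) in Ctrl and 698 (684 to 712) in cKO, a log2 ratio of -0.39. In somitic cells the sum was 1247 and 1013 UPM and in mesenchyme 1311 and 1157 UPM, while in endothelial cells it was 573 and 578 UPM. These sums were not set against the median of all genes within groups, which also lay below 0.

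The comparison of stages used the same libraries, and it cannot be told apart from the dissection. That took the upper part of the body at E8.5 and the pharyngeal apparatus with the heart, and by the sample summary the back, at E9.5. In Ctrl, 15 of 35 members were at least 2-fold higher at E9.5, against 18.1% of 14441 genes, and 0 were at least 2-fold lower, against 2.98%. In cKO, 12 of 34 were higher, against 11.5% of 14376 genes, and 3 lower, against 5.94%. The shares of members with higher levels were thus above the background in both. The median log2 ratio was 0.91 over the members against 0.39 over all genes in Ctrl, and 0.61 against 0.06 in cKO.

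The members with the largest stage ratios in Ctrl were Col15a1, whose 1 UMI at E8.5 gave 5.87 with an interval of 3.38 to 11.18, Col25a1 at 3.53 (2.98 to 4.14), Col3a1 at 3.25, Col8a2, with 1 and 26 UMIs, at 2.80 (0.19 to 8.16), Col6a3 at 2.40 (0.78 to 4.71), Col1a2 at 2.29 (2.10 to 2.49), Col9a1 at 2.26 (2.14 to 2.39) and Col9a2 at 2.06 (1.77 to 2.36). In cKO the same ratios were 1.30 for Col15a1, 3.41 for Col25a1, 3.33 for Col3a1, 1.15 for Col8a2, 3.51 for Col6a3, 2.33 for Col1a2, 1.59 for Col9a1 and 0.74 (0.40 to 1.10) for Col9a2. The fibrillar genes Col3a1 and Col1a2 thus had nearly equal ratios in the libraries of both genotypes, whereas those of the type IX genes were smaller in cKO. Col8a1 had 0 UMIs in Ctrl E8.5 and 27 in Ctrl E9.5, at least 2.41-fold higher against a floor of 3 UMIs.

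Col18a1 took opposite directions, at 0.36 (0.27 to 0.45) in Ctrl and -1.04 (-1.13 to -0.94) in cKO. Col4a6 was at 0.23 (-0.31 to 0.80) and -1.41 (-1.89 to -0.91). With median-of-ratios factors Col4a1, Col4a6, Col14a1 and Col27a1 moved below 0 in Ctrl. Col7a1 was lower at E9.5 in both, at -0.94 (-1.73 to -0.10) and -1.02 (-1.74 to -0.27).

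Stage ratios differed among the cell groups of Ctrl. Col3a1 was at 3.58 (3.37 to 3.80) in mesenchyme, 3.66 in somitic cells and 2.51 in endothelial cells. Col4a1 was at -0.02 (-0.15 to 0.10) in mesenchyme and 0.98 (0.70 to 1.27) in endothelial cells. Col18a1 was at 0.78 (0.52 to 1.06) in endothelial cells and at -0.86 (-1.08 to -0.64) in mesenchyme. Col25a1 was at 4.56 (3.00 to 6.84) in BrM cells and Col13a1 at 2.01 (1.32 to 2.80), and Col9a2 was at 5.18 (3.30 to 8.24) in aSHF cells. Their E8.5 levels rested on few counts, with 17 UMIs of Col13a1 (16.5 UPM) and 3 of Col25a1 (2.91 UPM) in the 50 BrM cells and 2 of Col9a2 (1.57 UPM) in the 66 aSHF cells.

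**Figure D5:**
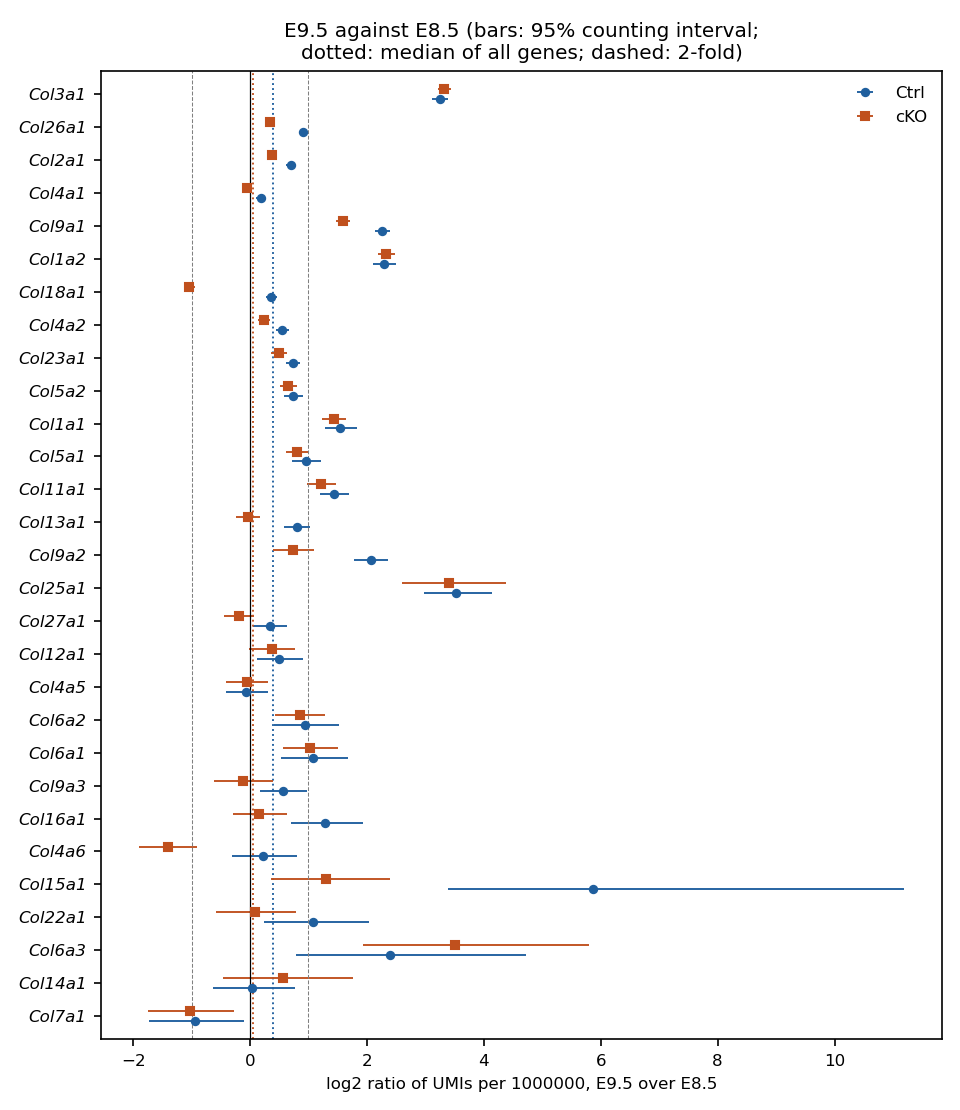
Log2 ratio of UMIs per 1000000 at E9.5 over E8.5 for the named collagen genes in Ctrl (circles) and cKO (squares), for genes with at least 20 UMIs in the pair of libraries. Bars are 95% counting intervals, dotted lines the median of all genes (0.39 and 0.06) and dashed lines 2-fold; Col3a1, Col1a2, Col25a1 and Col9a1 lie right of the 2-fold line in both genotypes, and Col18a1 is right of 0 in Ctrl and left of it in cKO.

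Genes that make, process or bind collagen were read in the same libraries. Of 19 genes for making and exporting collagen, 0 were at least 2-fold higher and 2 lower in cKO E9.5, P4ha3, a prolyl hydroxylase subunit with 17 and 4 UMIs, and Pdia3, a disulfide isomerase, at 367 UPM in Ctrl and 169 in cKO. Their median log2 ratio was -0.59 and 17 of the 19 were below 0, against a median of -0.26 over all genes. Serpinh1, the collagen chaperone of the endoplasmic reticulum, was the most abundant of those named, at 595, 516, 979 and 749 UPM in Ctrl E8.5, cKO E8.5, Ctrl E9.5 and cKO E9.5, a log2 genotype ratio of -0.20 (-0.24 to -0.17) and -0.39 (-0.40 to -0.37). The chaperone was thus lower in cKO at both stages, while Col3a1 and the type I genes were higher. Its E9.5 ratio stands beside the median of -0.26 over all genes. At E8.5 the list it belongs to had a median of 0.08, with 10 of 18 tested genes above 0.

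Of 10 processing and cross-linking genes tested at E9.5, 1 was higher, Lox, a lysyl oxidase that cross-links fibrils, at 0.435 and 1.11 UPM (1.35, 0.82 to 1.90). Of 6 receptor genes, Itga1, a collagen-binding integrin chain, was higher (1.496, 1.12 to 1.89) and Ddr1, a collagen-binding kinase of epithelia, lower (-1.14, -1.32 to -0.95). Of 13 basement membrane partners, the laminin chains Lama5 (-1.24, -1.49 to -1.004) and Lamc1 (-1.06, -1.17 to -0.96) were lower. Of 6 cartilage genes, Hapln1, a link protein of cartilage matrix, was lower at -1.18 (-1.25 to -1.11), and Sox9, the activator of Col2a1 in cartilage, stood at 75.7 and 68.4 UPM. Of 11 genes of the interstitial matrix, Postn was higher (1.09, 0.89 to 1.29) and Dcn, Fn1 and Tnc were lower, with Fn1 at 155 and 69.5 UPM. The share over all genes in this comparison was 3.56% higher and 9.80% lower. These ratios are of sums over all cells, and the epithelial and endothelial shares of cells were lower in cKO, as given above. Whether these genes differed within groups was not tested.

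Between stages in Ctrl, 5 of 13 basement membrane partners were at least 2-fold higher at E9.5, Hspg2, Lama2, Lama4, Nid1 and Sparc. So were 3 of 11 interstitial genes (Eln, Postn, Tnc), 3 of 10 processing genes (Loxl1, Loxl3, Pcolce), 2 of 6 receptor genes (Ddr1, Itga11) and 1 of 18 making genes, Fkbp10, another chaperone of procollagen, at 17.8 and 49.6 UPM. These counts stand beside the 18.1% of all genes that were at least 2-fold higher, and each rests on few genes. Serpinh1 had a stage ratio of 0.72 (0.70 to 0.75). At E8.5, 1 of 18 making genes was at least 2-fold higher in cKO, P3h3, with 214 UMIs in Ctrl and 584 in cKO. So were 1 of 8 processing genes, Loxl2 (2290 and 5546), and 1 of 9 interstitial genes, Thbs1 (33 and 68). 1 processing gene was lower, Loxl3 (31 and 15). Thbs1 and Loxl3 rested on few counts. Over all genes 2.92% were higher and 1.30% lower.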

How the data were processed

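The authors aligned the reads and deposited for each library a gene by cell matrix of UMI counts, not normalized. Per the labels this was done with Cell Ranger 3.1.0, while the headers of both E8.5 matrices name 3.0.2. No cell was removed here and no doublet caller was run, except that cells passing the gates of more than 1 distinct lineage stayed ungated (9 and 4 at E8.5, 33 and 54 at E9.5 in Ctrl and cKO). Genes were joined by Ensembl identifier, and counts were summed per library and per gated group of at least 50 cells and divided by the UMIs of the shared genes. Gates needed 4 of 8 endothelial, 4 of 8 cardiomyocyte, 3 of 6 epithelial, 3 of 6 BrM, 2 of 4 pSHF, 4 of 5 aSHF, 3 of 4 MLP, 2 of 4 somitic or 4 of 8 mesenchyme markers, taken in that order after the distinct lineages, which also included neural and neural crest cells.

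A gene was compared where a pair had at least 20 UMIs and was called at 2-fold, a pair with 0 UMIs on 1 side included. Members with at least 100 UMIs over the 4 libraries were described by name, and members called in a comparison were named too. Shares of cells were taken after thinning cells to 5000 UMIs. The members and lists were chosen with earlier results of these data known. Alternatives were other scalings, count minimums, thinning, means over cells and other gates, with the make-up weighting chosen after seeing the data. The gene comparison and its intervals were tested on simulated Poisson counts of whole libraries, for the genotype comparisons only. Gating, thinning, TMM scaling, make-up weighting, shares of cells and promoter matches were not tested in this way. Python 3.11.15, numpy 2.4.6, scipy 1.17.1, pandas 2.3.3 and matplotlib 3.10.9 were used, and TMM factors came from edgeR 4.0.16 in R 4.3.3. Promoters and gene positions were those of RefSeq for GRCm38.p6.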

Additional observations from a re-analysis of the deposited data

Results flagged for a closer look

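For 6 named collagen genes the counting intervals of the genotype ratio lay on opposite sides of 0 at E8.5 and E9.5. The difference between stages was not tested, since each stage had 1 library per genotype. The log2 ratio of cKO over Ctrl at E9.5 was lower than that at E8.5 by the following amounts, given as E9.5 minus E8.5. It was -1.63 for Col4a6 (0.75 at E8.5 and -0.88 at E9.5) and -1.40 for Col18a1 (0.13 and -1.27). It was -0.68 for Col9a1 (0.19 and -0.48), -0.56 for Col26a1 (0.15 and -0.41), -0.32 for Col4a2 (0.25 and -0.06) and -0.24 for Col4a1 (0.18 and -0.05). The E9.5 ratios of Col4a1 and Col4a2 were above 0 with TMM factors, at 0.20 and 0.19. After thinning cells to 5000 UMIs the E8.5 ratios of Col4a6 and Col18a1 were -0.03 and -0.01.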

How the results depend on the processing

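With 1 library per group, differences between libraries and between groups cannot be told apart, and stage cannot be told apart from the dissected tissue. No paired analysis was possible because each group had 1 library. No replicate could be left out. Of the summary values under the alternatives, 114 stayed (counts within 1.5 times, levels within their counting interval) and 51 moved. Of the log2 ratios of single genes 912 stayed within their 95% counting interval and 187 left it. Of ratios past 2-fold 1 changed sign, Col15a1 in the E9.5 genotype comparison, at 0.56 with Ctrl at the make-up of cKO, while some smaller ratios also changed sign, among them those named with the results. In 23 combinations of group and setting too few cells remained, so counts over groups there cover fewer groups. In the order Ctrl E8.5, cKO E8.5, Ctrl E9.5 and cKO E9.5, the summed level was 457, 500.0, 812 and 947 UPM with TMM, 454, 537, 1005 and 958 as a mean over cells, and 442, 490.4, 1008 and 958 after thinning.

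Members higher in cKO E9.5 numbered 4 with TMM, 4 with median-of-ratios factors, 4 with no minimum, 1 at 100 UMIs and 1 as a mean over cells. At E8.5, 5 were higher and 6 lower with no minimum, 0 lower at 100 UMIs, 1 higher as a mean over cells, and 1 higher and 0 lower after thinning. Between stages in Ctrl, 1 was lower with TMM, with median-of-ratios factors and as a mean over cells. In MLP cells 2 were higher and 3 lower with the stricter gate, 1 and 3 without cells that passed a second gate, and 5, 4 and 3 lower with thinned gates, at 100 UMIs and with TMM. In mesenchyme 1 was higher with thinned gates, 1 higher and 2 lower at 100 UMIs, and 4 were higher than in other cells with thinned gates. Over pairs of member and group at E9.5, 2 were higher and 15 lower at 100 UMIs, 16 and 16 with TMM, and 15 and 13 lower with the stricter gate and without cells of a second gate. At E8.5, 3 were higher and 0 lower at 100 UMIs, 3 and 2 with thinned gates, 1 and 0 with the stricter gate, and 4 and 0 without cells of a second gate. The cause was not tested for the other scalings and gates, while count minimums and gates change how many genes and cells enter.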
